A study of Homo sapiens with 10 samples.

Results

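The RAB genes encode small GTPases that mark the membranes of endosomes, the Golgi, secretory vesicles and lysosomes. They were taken as the protein-coding genes whose symbol is RAB, a number and at most 1 letter from A to D. This rule found 51 genes among 18034, of which 13892 are protein-coding. RNA was measured in HCT116 cells, a long-established line from a human colorectal carcinoma, in 10 libraries that form 5 groups of 2. In the inhibitor experiment, EPZ cells were kept for 72 h in 10 µM EPZ-5676, which inhibits the histone methyltransferase DOT1L, and DMSO cells received the solvent. In the other experiment all 3 groups carry an shRNA that knocks down CDK9, a kinase that acts in transcription elongation. K56A cells re-express a CDK9 in which alanine replaces lysine 56, WT cells re-express wild-type CDK9, and EV cells have a construct whose name the labels do not expand. No cells without the shRNA enter that experiment, and the promoter of the constructs, the number of clones and whether replicates are separate cultures are not stated by the labels. The p-values therefore set group differences against the scatter of these libraries, and that scatter may be technical.

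A RAB protein cycles between a GDP-bound form held in the cytosol and a GTP-bound form on a membrane. Exchange factors (GEFs) load GTP and bring the RAB to its membrane, GTPase-activating proteins (GAPs) switch it off, and effectors such as tethers, motors and sorting proteins bind the active form. A geranylgeranyl anchor added by a dedicated transferase holds it in the lipid, and GDP dissociation inhibitors take it off again. In a polarised epithelium such as that of the colon, RABs sort cargo between the apical and basolateral surfaces. RAB5 proteins act on early endosomes, RAB4 and RAB11 proteins in fast and slow recycling to the surface, RAB7A on late endosomes, RAB1 and RAB2 proteins between the ER and the Golgi, and RAB3 and RAB27 proteins in regulated secretion.

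Levels are FPKM (fragments per kilobase of transcript, scaled to library size), deposited per transcript and summed per gene. The depth of the libraries is unknown, since the tables hold no counts. The mitochondrially encoded share of all FPKM was 18.4% and 19.3% in EPZ, 17.3% and 17.6% in DMSO, 25.4% and 25.6% in K56A, 27.7% and 27.2% in WT and 27.9% and 27.6% in EV. CDK9 itself stood at 2611 and 2500.3 FPKM in K56A, 3060.2 and 2976 in WT and 16.4 and 19.4 in EV, beside 41.9 and 38.5 in EPZ and 43.9 and 37.6 in DMSO. DOT1L also differed between the lines, at 733 and 703 FPKM in K56A, 578 and 568 in WT and 324 and 343 in EV, beside 10.7 and 10.4 in EPZ and 12.6 and 12.5 in DMSO. The part of that difference in any RAB result below was not tested. The 4 epithelial markers EPCAM, CDH1, KRT8 and KRT18 summed to 1253 to 2090.3 FPKM per library. Of the markers of blood, fibroblast and endothelial cells, PTPRC and CD3E had no listed transcript and were taken as 0, PDGFRB, PECAM1 and VWF stayed at or below 0.209 FPKM, and COL1A1, a collagen gene of fibroblasts, had 23.1 and 19.8 FPKM in EPZ, 19.3 and 20.1 in DMSO, 36.2 and 34.5 in K56A, 34.1 and 33.1 in WT and 29.9 and 27.4 in EV. COL1A1 was thus higher in K56A and WT than in EV, and its part in the RAB results was not tested.

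One member passed the test between groups, RAB4B, and 1 of its introns is kept by a RAB4B transcript and by a readthrough transcript whose values had opposite orders, so the junctions of that intron are shown first. RAB4B (ENSG00000167578) lies on the plus strand of chromosome 19, 40778216 to 40796942 in GRCh38, and its protein promotes rapid recycling from early endosomes. The intron between coding exons 2 and 3 spans 40780100 to 40780384, 285 bases, and by GENCODE 29 it is removed from the coding transcript RAB4B-201. Of the transcripts examined for it 2 keep it, RAB4B-206 and RAB4B-EGLN2-202. RAB4B-203, listed in the K56A table only, was not examined. RAB4B-EGLN2-202 belongs to the readthrough gene that runs on into EGLN2. The letters of the intron are the same in both, and the 2 share 545 of the 715 bases of RAB4B-206. Below, capitals mark intron, lower case marks exon, and each line runs 5′ to 3′ with 40 bases on either side of the junction (GENCODE 29 transcripts, GRCh38, plus strand).
exon 2 spliced to exon 3 (chr19:40780060-40780424, intron left out): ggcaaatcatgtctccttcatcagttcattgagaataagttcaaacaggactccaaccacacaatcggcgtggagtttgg
exon 2 running into the intron (chr19:40780060-40780139): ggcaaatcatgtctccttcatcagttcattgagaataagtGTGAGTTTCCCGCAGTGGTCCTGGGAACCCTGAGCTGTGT
intron running into exon 3 (chr19:40780345-40780424): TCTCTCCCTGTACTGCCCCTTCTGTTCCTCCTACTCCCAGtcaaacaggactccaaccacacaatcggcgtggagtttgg
A read over the first line fits transcripts spliced there. RAB4B-EGLN2-202 starts at 40780071, within exon 2, so its bases begin inside the second line, while the third line is found whole in both intron-keeping transcripts. Reads within the intron cannot be assigned to RAB4B-206 or to RAB4B-EGLN2-202 by those letters.

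HCT116 cells held RNA of 49 members in the inhibitor table and of 51 in the knockdown tables. The 2 further members, RAB7B of the lysosome-to-Golgi route and RAB44, were at most 0.371 FPKM over the transcripts that both knockdown tables list. Summed over members, the family made up 1390.1 and 1411 FPKM in EPZ, against 1359 and 1394 in DMSO. It summed to 739 and 734 FPKM in K56A, 756 and 756 in WT and 746 and 748 in EV. The sum over the family thus lay within 1 narrow range in each experiment. EPZ and DMSO overlapped, while the knockdown groups did not, with K56A lowest, EV next and WT highest. As a share of all FPKM the family took 0.240% and 0.242% in EPZ, 0.233% and 0.244% in DMSO, and 0.132% to 0.135% in the 6 knockdown libraries. In that share K56A overlapped with EV and with WT. The tables of the 2 experiments had their own normalization, so no test was run between them. Set side by side, 43 of 49 members had a lower mean in EV than in DMSO and 6 a higher one, with a median ratio of 0.583. Over 10429 genes above 1 FPKM in both groups, 5907 were lower in EV and the median ratio was 0.908. The 49 members, unlike these genes, were not filtered by level or by transcripts listed in only 1 knockdown table. Their EV sums leave such transcripts out while their DMSO sums hold every listed transcript, so the 2 medians are not strictly alike. The 6 members higher in EV were RAB19, RAB15, RAB26, RAB24, RAB3B and RAB37. RAB26, which acts on secretory granules, averaged 21 FPKM in EV and 9.35 in DMSO, and RAB27B, which acts in exosome and granule release, averaged 0.288 in EV and 2.73 in DMSO.

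**Figure D1:**
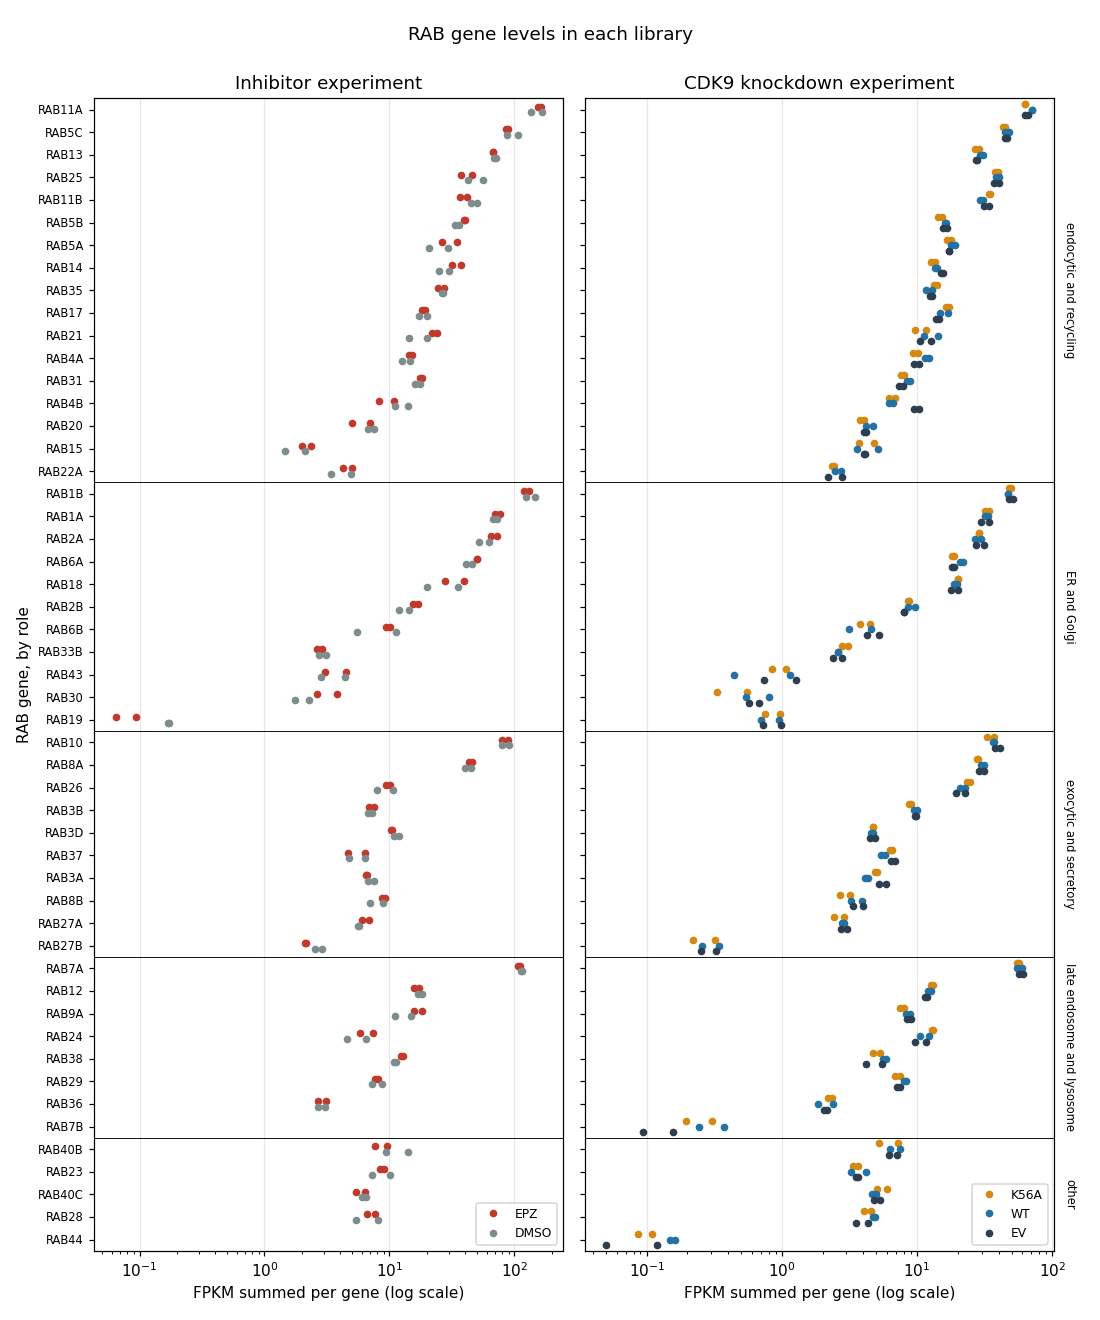
Level of each of the 51 RAB genes (FPKM summed per gene, log scale) in every library, grouped by role, with EPZ above DMSO on the left and K56A above WT above EV on the right, 1 point per library. RAB11A, RAB1B, RAB7A and RAB5C lead in both experiments, and the EV points of RAB4B (10.3 and 9.48) stand right of its K56A and WT points (6.20 to 6.91), as do those of RAB10, RAB14 and RAB3A by smaller distances.

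A few members carried much of the RAB RNA. The 5 highest, RAB11A, RAB1B, RAB7A, RAB5C and RAB10 in both groups of the inhibitor experiment, made up 40.5% of the family sum in EPZ and 42.4% in DMSO. In the knockdown lines the 5 highest made up 33.8% in K56A, 34.5% in WT and 34.5% in EV, with RAB25 in the place of RAB10 in K56A and WT. The median member stood at 12.7 FPKM in EPZ, 12.6 in DMSO, 7.85 in K56A, 8.68 in WT and 8.7 in EV. Levels here are means over libraries and are compared between genes on the FPKM scale, which divides by transcript length.

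Among the 17 endocytic and recycling members, RAB11A of the recycling endosome stood highest in every group. It had 155.5 and 163.5 FPKM in EPZ, 135.9 and 166.5 in DMSO, 62.3 and 62.5 in K56A, 70.7 and 71.3 in WT and 63.3 and 66.7 in EV. RAB5C of early endosomes followed in mean over the 10 libraries (64.1 FPKM), with 43.2 to 47.4 FPKM in the 6 knockdown libraries. Next came RAB13, which acts at tight junctions (44.5 FPKM), and RAB25, the epithelial relative of RAB11A (41.6 FPKM). RAB13 and RAB25 changed places between the experiments and did not overlap within either. RAB13 led in the inhibitor libraries, with 67.1 to 71.7 FPKM against 37.2 to 56.5 for RAB25. RAB25 led in the knockdown libraries, with 37.1 to 40.6 FPKM against 26.7 to 30.6 for RAB13. RAB11B averaged 36.7 FPKM and RAB4A, the closest relative of RAB4B, 12 FPKM. RAB15 and RAB22A, the lowest of this group, averaged 3.34 and 3.26 FPKM.

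In the ER and Golgi group of 11, RAB1B and RAB1A of ER-to-Golgi transport averaged 81.3 and 48.2 FPKM over the 10 libraries. RAB2A, which acts between the ER and the Golgi, averaged 42.5 FPKM, and RAB6A, a Golgi RAB of retrograde transport, 30.4 FPKM. At the other end RAB43 and RAB30, both Golgi-associated, averaged 2.02 and 1.40 FPKM, and RAB19 0.558. RAB43 shares exons with a readthrough gene, ISY1-RAB43, whose transcript was listed at 9.19 and 11.4 FPKM in EPZ, 11.1 and 8.97 in DMSO and 3.46 to 4.96 in the knockdown libraries, above RAB43 in every library. A pseudogene copy, RAB43P1, was listed at 0.751 to 5.77 FPKM. The level of RAB43 is uncertain for that reason. Antisense transcripts overlap the starts of RAB11B and RAB33B, whose levels are uncertain there because the strand setting is not given. That of RAB11B, RAB11B-AS1, was listed at 0.647 to 2.54 FPKM. RAB30 has divergent transcripts listed beside it, but they start outside the gene.

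Of the 10 exocytic and secretory members, RAB10 and RAB8A, which carry vesicles to the plasma membrane, led with 56.1 and 35.2 FPKM. RAB26 followed at 17.2 FPKM, and its order among the members differed between experiments as given above. RAB3A, RAB3B and RAB3D, the regulators of vesicle release known from neurons and gland cells, averaged 5.70, 8.50 and 7.18 FPKM. RAB27A and RAB27B averaged 4.10 and 1.15 FPKM. Among the 8 late endosome and lysosome members, RAB7A stood alone at 78.9 FPKM. RAB12, which acts in degradation of the transferrin receptor, averaged 14.2 FPKM and RAB9A, which acts in return from late endosomes to the Golgi, 11 FPKM. Among the 5 others, RAB40B and RAB40C, which join ubiquitin ligases through a SOCS box, averaged 8.03 and 5.50 FPKM, and RAB23, a negative regulator of Hedgehog signalling, 5.65 FPKM.

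The 51 members had 194 transcripts in the 3 tables. Of these 120 were called protein-coding, 42 retained intron, 16 targets of nonsense-mediated decay and 16 processed transcripts. For most genes the coding transcripts held most of the FPKM. RAB21, which acts in integrin uptake, was an exception, with 10.8% in coding transcripts in the inhibitor table and 13.2% in the knockdown tables. Its retained-intron transcript RAB21-202 stood at 19.5 and 21.4 FPKM in EPZ and 12.5 and 18.1 in DMSO, while the coding RAB21-201 stood at 2.36 and 2.57 in EPZ and 1.73 and 2.03 in DMSO. RAB17 of epithelial transcytosis had 37.3% and 21.9% in coding transcripts, and RAB24, an atypical RAB linked to autophagy, 48.2% and 30.5%, inhibitor table first. RAB4A had 40.5% and 35.1%. These 4 members were below 50% in both experiments, RAB10 was so in the inhibitor table only (48.0%), and RAB40B (48.1%) and RAB40C (47.1%) in the knockdown tables only.

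The effect of DOT1L inhibition was read from EPZ against DMSO. Of 48 members tested, 0 rose and 0 fell at an adjusted p of 0.05 (limma, Benjamini-Hochberg over 13130 genes), where 0.00762% of all genes tested were called. An unadjusted p below 0.05 was reached by 3 members, 6.25%, against 5.83% of all genes, and all 3 were higher in EPZ. The median log2 fold change of the members was 0.06 (0.00 over all genes), with 28 above 0 and 20 below, and values ran from -0.41 to 0.55. The libraries of EPZ and DMSO did not overlap for 17 of 48 members, 35.4%, against 37.4% of all genes tested. Each fold change is a difference of log2(FPKM + 0.5), so that of a low gene is understated, and in bulk RNA fewer cells of a kind and less RNA per cell cannot be told apart.

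The members with the smallest p-values among those higher in EPZ were RAB21, RAB14 and RAB30. RAB21 had 21.9 and 24 FPKM in EPZ, against 14.3 and 20.1 in DMSO, a log2 fold change of 0.42 ± 0.18 (SE). Every EPZ library stood above both DMSO libraries, of which DMSO replicate 1 was the lower. RAB14, which acts between the Golgi and endosomes, had 31.9 and 37.8 FPKM in EPZ, against 24.8 and 29.9 in DMSO (0.34 ± 0.15). RAB30 had 2.65 and 3.80 FPKM in EPZ, against 1.77 and 2.29 in DMSO (0.55 ± 0.24). The limma adjusted p was 0.756 for each of the 3.

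Lower in EPZ with the smallest p-values were RAB11B, RAB4B and RAB40B. RAB11B of the recycling endosome had 41.7 and 36.8 FPKM in EPZ, against 50 and 44.9 in DMSO, -0.27 ± 0.13 (SE) on the log2 scale. RAB4B had 10.9 and 8.32 FPKM in EPZ, against 14.1 and 11.2 in DMSO (-0.38 ± 0.18). RAB40B had 9.53 and 7.70 FPKM in EPZ, against 14.2 and 9.37 in DMSO (-0.41 ± 0.21), and its groups overlapped. The limma adjusted p was 0.756 for each of these 3 as well, and their 95% intervals reached from -0.57 to 0.02, from -0.80 to 0.04 and from -0.90 to 0.08. In the ER and Golgi group 8 of 10 tested members lay above 0, with a median of 0.24, and in the endocytic group 9 of 17 did, with a median of 0.08.

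The counts changed with the DMSO libraries used. DMSO replicate 1 had 54216 transcripts above 0, fewer than the 59403 to 59913 of the other inhibitor libraries, and its part in the counts below was not tested. Among the members, RAB18 of the ER and lipid droplets had 28.1 and 39.4 FPKM in EPZ, against 20 in DMSO replicate 1 and 35.4 in DMSO replicate 2. RAB6B, a Golgi RAB best known from neurons, had 10 and 9.43 FPKM in EPZ, against 5.50 and 11.3 in DMSO. When DMSO replicate 2 was left out, so that DMSO replicate 1 alone stood for DMSO, 10 of 48 members passed, 7 higher and 3 lower, beside 12% of all genes (1560 of 13000). They were RAB18, RAB6B, RAB21, RAB9A, RAB5A, RAB14 and RAB30 higher, and RAB40B, RAB4B and RAB25 lower. Without DMSO replicate 1, without EPZ replicate 1 or without EPZ replicate 2, 0 members passed, and DMSO replicate 1 and replicate 2 correlated less (r = 0.981 across 13130 genes) than the EPZ libraries (0.990).

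**Figure D2:**
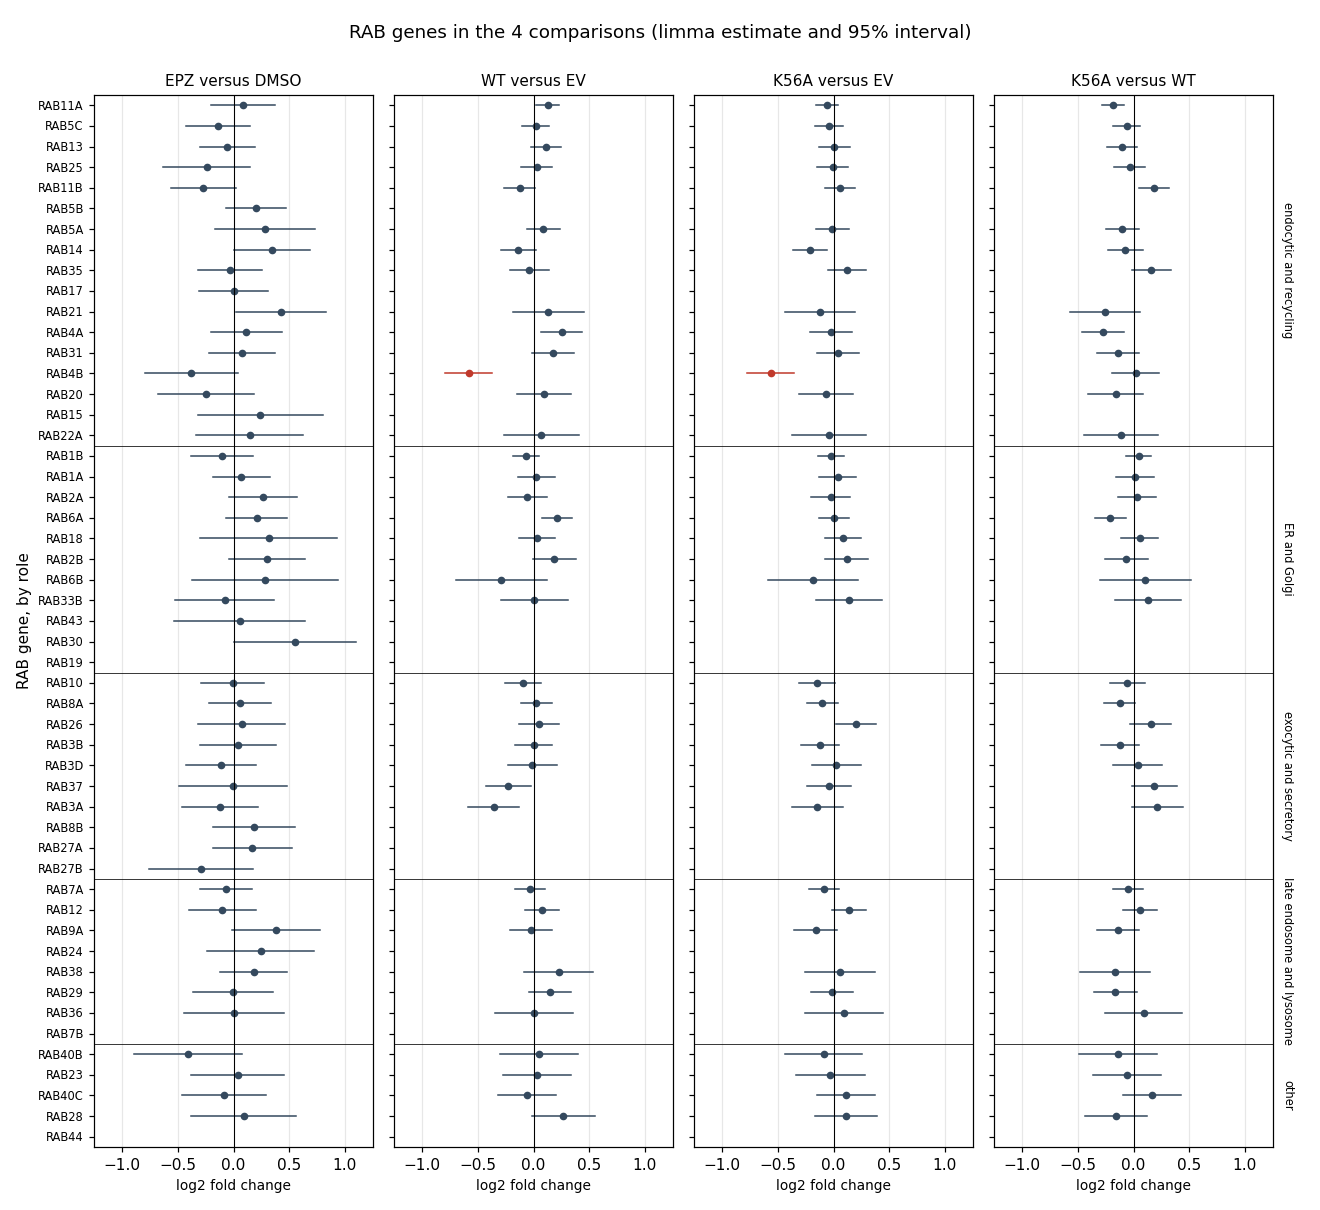
Log2 fold change of each tested RAB gene with its 95% interval (limma, log2(FPKM + 0.5) scale) in the 4 comparisons, grouped by role, where a blank line is a member not tested there and red marks an adjusted p below 0.05. RAB4B is red against EV in WT (-0.58) and in K56A (-0.56) and lies at 0.02 in K56A versus WT.

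The K56A and WT lines, which re-express CDK9, were each compared with the same EV libraries, in 1 fit of 6 libraries and 11566 genes. Their CDK9 RNA stood far above that of the DMSO cells as well as that of EV, as given above. Of the 51 members 39 were tested. RAB27B, RAB19 and RAB44 were too low, and RAB27A, RAB5B, RAB17, RAB30, RAB15, RAB8B, RAB24, RAB43 and RAB7B had more than 5% of their FPKM in transcripts listed in only 1 of the knockdown tables. RAB4B fell in both comparisons and no other member was called. In K56A versus EV that is 1 of 39 members called lower, where 0.597% of all genes tested were called lower, 0.19% higher and 0.787% in either direction. In WT versus EV it is 1 of 39, where 0.458% were called lower, 0.0778% higher and 0.536% in either direction. The 2 comparisons share their EV libraries and are not independent of each other.

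RAB4B had 6.20 and 6.91 FPKM in K56A, 6.65 and 6.25 in WT and 10.3 and 9.48 in EV. Both EV libraries stood above all 4 others, and K56A and WT overlapped. The log2 fold change was -0.56 ± 0.09 (SE) in K56A versus EV (limma adjusted p = 0.0435, 95% interval -0.77 to -0.35). In WT versus EV it was -0.58 ± 0.09 (adjusted p = 0.0477, 95% interval -0.79 to -0.37). Between K56A and WT it was 0.02 ± 0.09 (adjusted p = 0.960, 95% interval -0.19 to 0.23). The call against EV was lost without any 1 of the libraries compared, with adjusted p from 0.0821 to 0.241 for K56A and from 0.0946 to 0.252 for WT.

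**Figure D3:**
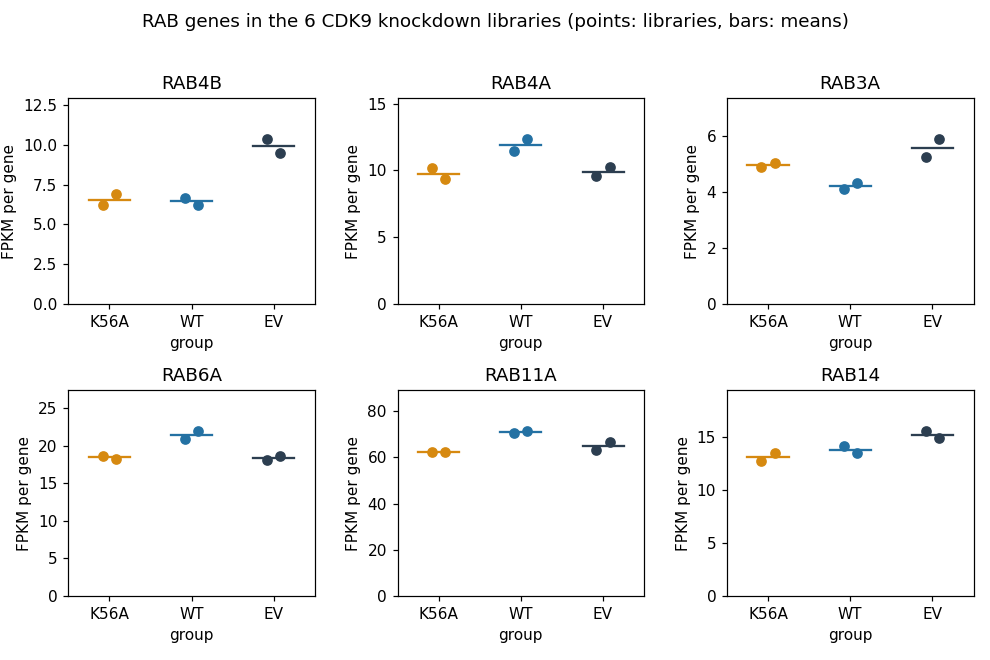
FPKM per gene of RAB4B, RAB4A, RAB3A, RAB6A, RAB11A and RAB14 in K56A, WT and EV, with 1 point per library and a bar at the mean of 2 libraries. RAB4B separates both K56A (6.20 and 6.91) and WT (6.65 and 6.25) from EV (10.3 and 9.48), whereas RAB4A, RAB6A and RAB11A are highest in WT.

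Its transcripts did not all differ in the same way. The coding RAB4B-201 stood at 3.43 and 3.12 FPKM in K56A, 3.60 and 3.43 in WT and 5.24 and 4.63 in EV, where both EV libraries stood above the others and K56A and WT overlapped. RAB4B-208, also coding, stood at 0.291 and 0.757 FPKM in K56A, 0.831 and 0.521 in WT and 1.46 and 0.951 in EV. The retained-intron transcript RAB4B-204 stood at 2.06 and 2.29 FPKM in K56A, 1.72 and 1.64 in WT and 1.55 and 1.74 in EV, so K56A stood above EV and WT overlapped with EV. RAB4B-206, which keeps the intron printed above, stood at 0.275 and 0.516 FPKM in K56A, 0.202 and 0.528 in WT and 1.87 and 1.91 in EV. In the authors' deposited tables the adjusted p of RAB4B-206 was 0.0209 for K56A and 0.0639 for WT, and that of RAB4B-201 was 0.169 for K56A and 0.494 for WT.

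The readthrough transcript that keeps the same intron had the opposite order. RAB4B-EGLN2-202 stood at 1.77 and 1.78 FPKM in K56A, 1.18 and 2.76 in WT and 0.479 and 0 in EV. Summed, RAB4B-206 and RAB4B-EGLN2-202 gave 2.17 ± 0.182 FPKM in K56A, 2.34 ± 1.35 in WT and 2.13 ± 0.312 in EV (SD, n = 2 each), so the 3 groups overlapped. The RAB4B transcripts, without RAB4B-203 that only the K56A table lists, were also summed with the readthrough genes RAB4B-EGLN2 and MIA-RAB4B. That gave 10.5 and 9.84 FPKM in K56A, 9.79 and 10.3 in WT and 11.9 and 11.1 in EV. On that sum both EV libraries stood above every K56A and WT library. The log2 fold change was -0.17 (limma adjusted p = 0.349) in K56A versus EV and -0.19 (limma adjusted p = 0.341) in WT versus EV. Coding transcripts alone, again without RAB4B-203, gave 3.72 and 3.87 FPKM in K56A, 4.43 and 3.95 in WT and 6.70 and 5.58 in EV. On the coding sum it was -0.62 (adjusted p = 0.0805) in K56A versus EV and -0.50 (adjusted p = 0.122) in WT versus EV.

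For 2 nearby genes, K56A and WT each overlapped with EV. EGLN2, an oxygen-dependent prolyl hydroxylase downstream of RAB4B, had 19.5 ± 1.20 FPKM in K56A, 18.5 ± 0.631 in WT and 18.6 ± 1.75 in EV (SD, n = 2 each). SNRPA, a spliceosomal protein gene upstream, had 74.9 ± 1.34 FPKM in K56A, 69.9 ± 3.57 in WT and 73.5 ± 1.54 in EV. In the inhibitor experiment RAB4B-206 was listed at 0.661 and 0 FPKM in EPZ and 1.28 and 0.314 in DMSO, and RAB4B-201 at 7.19 and 6.22 in EPZ and 10.8 and 7.82 in DMSO. The inhibitor table lists no value of RAB4B-EGLN2-202.

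**Figure D4:**
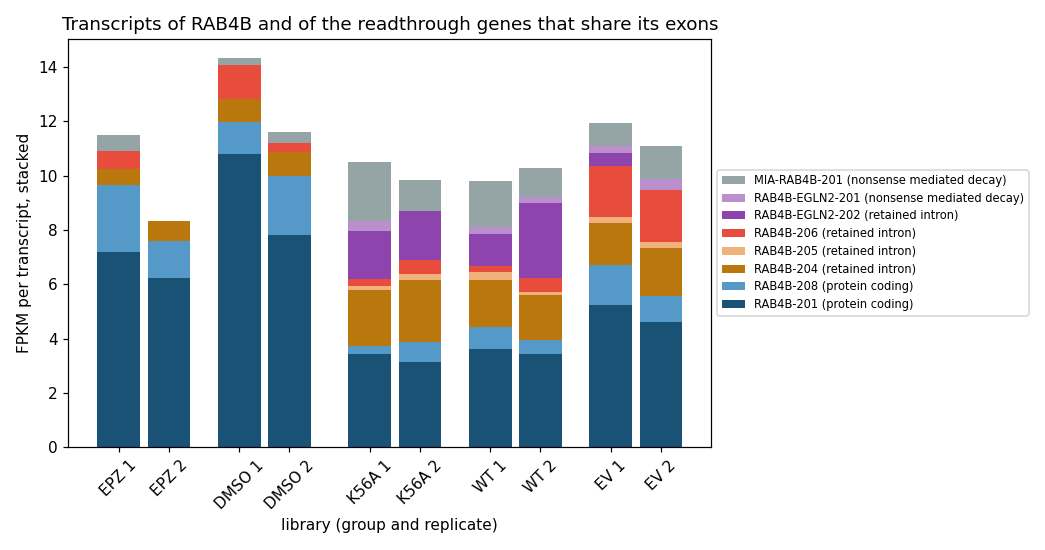
FPKM of the RAB4B transcripts and of the readthrough transcripts that share its exons, stacked for each library, EPZ left of DMSO and K56A and WT left of EV, with transcripts that a table does not list drawn as 0 and RAB4B-203, listed in the K56A table only, left out. In EV the segment of RAB4B-206 is 1.87 and 1.91 FPKM and that of RAB4B-EGLN2-202 0.479 and 0, while in K56A and WT RAB4B-EGLN2-202 holds 1.18 to 2.76 FPKM.

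The remaining members differed little from EV. In K56A versus EV, 3 of 39 members had an unadjusted p below 0.05, 7.69%, against 15.1% of all genes. RAB4B and RAB14 were the lower ones and RAB26 the higher one. RAB14 had 12.7 and 13.5 FPKM in K56A, against 15.5 and 14.9 in EV, -0.21 ± 0.07 (SE, limma adjusted p = 0.217). RAB26 had 23.6 and 24.7 FPKM in K56A, against 19.5 and 22.5 in EV (0.20 ± 0.08, limma adjusted p = 0.294). RAB10 (-0.15 ± 0.07), RAB12 (0.14 ± 0.07) and RAB35 of endosomal recycling and cytokinesis (0.12 ± 0.08) complete the 3 smallest p-values in each direction, with limma adjusted p of 0.355, 0.384 and 0.495. The members had a median of -0.02, against 0.03 over all genes, with 16 above 0 and 23 below. Libraries did not overlap for 15 of 39, 38.5%, against 45.6% of all genes.

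In WT versus EV, 6 of 39 members had an unadjusted p below 0.05, 15.4%, against 13.5% of all genes. RAB3A of vesicle exocytosis had 4.12 and 4.31 FPKM in WT, against 5.24 and 5.88 in EV, -0.36 ± 0.10 (SE, limma adjusted p = 0.176). RAB37, also of secretory vesicles, had -0.23 ± 0.09 (limma adjusted p = 0.310). RAB6A had 20.8 and 21.9 FPKM in WT, against 18.1 and 18.6 in EV (0.21 ± 0.06, limma adjusted p = 0.178). RAB4A had 11.5 and 12.3 FPKM in WT, against 9.54 and 10.3 in EV (0.25 ± 0.08, limma adjusted p = 0.234), and RAB11A 0.13 ± 0.04 (limma adjusted p = 0.261). The 3 lower ones, RAB4B included, and the 3 higher ones each had libraries that did not overlap, as did 18 of 39 members in all, 46.2%, against 43.5% of all genes. Most of the RAB4A difference lay in a processed transcript, RAB4A-202, at 7.64 and 8.14 FPKM in WT and 4.71 and 5.91 in EV, while the coding RAB4A-201 stood at 3.82 and 3.79 in WT and 4.16 and 3.70 in EV. With coding transcripts only, the log2 fold change in WT versus EV was -0.039 for RAB4A and 0.0062 for RAB37. The median of the members was 0.03, against 0.01 over all genes, with 24 above 0 and 15 below.

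The lines that re-express CDK9 with and without the lysine-to-alanine change were compared as K56A against WT. These lines also differed in CDK9 RNA, at 2611 and 2500.3 FPKM in K56A and 3060.2 and 2976 in WT. DOT1L RNA differed too, at 733 and 703 FPKM in K56A and 578 and 568 in WT. The part of the residue alone was not tested. Of 39 members 0 were called, where 0.0605% of all genes tested were, 0.0173% higher and 0.0432% lower. An unadjusted p below 0.05 was reached by 4 members, 10.3%, against 13% of all genes. RAB11A had 62.3 and 62.5 FPKM in K56A, against 70.7 and 71.3 in WT, -0.18 ± 0.04 (SE, limma adjusted p = 0.170). RAB6A had 18.6 and 18.3 FPKM in K56A, against 20.8 and 21.9 in WT (-0.21 ± 0.06, limma adjusted p = 0.218). RAB4A had 10.2 and 9.32 FPKM in K56A, against 11.5 and 12.3 in WT (-0.28 ± 0.08, limma adjusted p = 0.231). RAB11B had 34.4 and 33.8 FPKM in K56A, against 29.3 and 30.6 in WT (0.18 ± 0.06, limma adjusted p = 0.272). So RAB11A and RAB11B, close relatives on recycling endosomes, had differences of opposite sign, and neither passed.

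RAB37 (0.19 ± 0.09) and RAB3A (0.21 ± 0.10) had the next smallest p-values among members higher in K56A than in WT, with limma adjusted p of 0.422 and 0.422. Across the family 16 members lay above 0 and 23 below, with a median of -0.06, against 0.01 over all genes. Below 0 lay 11 of 14 endocytic, 2 of 8 ER and Golgi, 3 of 7 exocytic, 4 of 6 late endosome and 3 of 4 other members, while 54.5% of all genes lay above 0. Libraries of K56A and WT did not overlap for 26 of 39 members, 66.7%, against 45.4% of all genes. The largest differences remained small, from -0.28 to 0.21 on the log2 scale, and 37 of 39 were within 0.25 of 0. The mitochondrially encoded share also differed between these groups (25.4% and 25.6% in K56A, 27.7% and 27.2% in WT). With mitochondrially encoded genes left out of the scaling, 14 of 40 members lay above 0 and 26 below, with a median of -0.10 against -0.02 over all genes.

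For members left out of the 6-library fit, each knockdown table was also fitted alone, a choice made after seeing the data. There 7 of the 12 could be tested, and 0 were called in K56A versus EV (background 0.16%) and 0 in WT versus EV (background 0.0728%). Their log2 fold changes ran from -0.13 to 0.33 for K56A and from -0.25 to 0.17 for WT. RAB24 stood highest for K56A, with 14 and 13.7 FPKM in K56A, against 9.90 and 11.9 in EV (0.33 ± 0.10, limma adjusted p = 0.254). RAB17 had 16.5 and 18.9 FPKM in K56A, against 14.3 and 15.4 in EV (0.24 ± 0.09, limma adjusted p = 0.307). RAB27A, which drives exosome release, had 0.03 ± 0.13 in WT and -0.11 ± 0.14 in K56A, and RAB5B of early endosomes 0.01 ± 0.07 in WT and -0.02 ± 0.07 in K56A. RAB4B, retested in the same fits, had adjusted p of 0.119 for K56A and 0.0908 for WT.

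The authors' own tests were made per transcript. In the authors' deposited table for the inhibitor, 2 of 158 RAB transcripts passed an adjusted p of 0.05, 1.27%, against 1.19% of all transcripts. Both were at 0 in a whole group. RAB43-201 had 0 and 0 FPKM in EPZ and 2.67 and 3.30 FPKM in DMSO, while RAB43-208 was listed at 2.85 and 2.92 in EPZ and 0 and 1.10 in DMSO. RAB7A-202 was listed at 2.09 and 2.66 FPKM in EPZ and at 0 in DMSO, beside 74.1 to 75.4 in EPZ and 67.1 to 74.7 in DMSO for RAB7A-201. The gene sums of RAB43 (0.05 ± 0.25) and RAB7A (-0.07 ± 0.10) did not pass.

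In the authors' deposited table for K56A, 12 of 178 RAB transcripts passed, 6.74%, against 3.8% of all transcripts, 6 higher and 6 lower. In that for WT, 6 of 171 passed, 3.51%, against 3.33%, 2 higher and 4 lower. Of these calls 5 for K56A and 4 for WT had a group at 0 in both libraries. RAB28, a ciliary RAB, had a coding transcript, RAB28-201, at 0.867 and 0.680 FPKM in K56A, 2.06 and 2.25 in WT and 0.0667 and 0.135 in EV. Its log2 fold change in the authors' deposited tables was 2.89 for K56A and 4.38 for WT, with adjusted p of 0.0059 and 2.0e-10. The other main coding transcript, RAB28-202, stood at 3.18 and 2.76 FPKM in K56A, 2.35 and 2.13 in WT and 3.45 and 3.35 in EV. RAB28-201 and RAB28-202 are listed with the same ends, 13367724 to 13484340, and how well reads were divided between them was not tested. The sum of RAB28 had log2 fold changes of 0.11 ± 0.12 in K56A versus EV and 0.27 ± 0.12 in WT versus EV (limma adjusted p of 0.725 and 0.395).

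RAB12 had a like division between its coding transcripts. RAB12-203 was listed at 0 and 3.47 FPKM in K56A, 0 and 0 in WT and 3.93 and 9.30 in EV, and RAB12-201 at 9.77 and 6.29 in K56A, 10.5 and 10.3 in WT and 5.15 and 0 in EV. For both transcripts the EV libraries stood apart from the K56A and WT libraries, with RAB12-203 higher and RAB12-201 lower in EV. The 2 transcripts have nearly the same ends, 8609445 to 8639382 for RAB12-201 and 8609437 to 8639381 for RAB12-203. Their values also differed widely between the 2 EV libraries. How well reads were divided between them was not tested. RAB12-203 passed in the authors' deposited table for WT, with an adjusted p of 5.3e-10. The gene sum was 13.1 and 12.7 FPKM in K56A, 12.6 and 12.1 in WT and 11.9 and 11.5 in EV. In the inhibitor experiment RAB12-201 had 14.6 and 11.1 FPKM in EPZ and 0 and 6.57 in DMSO, and RAB12-203 had 0 and 4.71 in EPZ and 14.8 and 9.80 in DMSO. RAB5A of early endosomes had RAB5A-205, a target of nonsense-mediated decay, at 2.89 and 3.53 FPKM in K56A and 1.58 and 1.42 in EV, and the coding RAB5A-203 at 1.80 and 1.10 in K56A and 3.41 and 3.29 in EV. Both passed in the authors' deposited table (adjusted p of 0.0266 and 0.0398), while the gene sum had -0.01 ± 0.06. RAB8A-202 stood at 5.70 and 6.42 FPKM in K56A and 8.77 and 9.25 in EV (authors' adjusted p of 0.0152), beside 20.5 and 20.3 in K56A and 19.2 and 20.6 in EV for RAB8A-201.

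**Figure D5:**
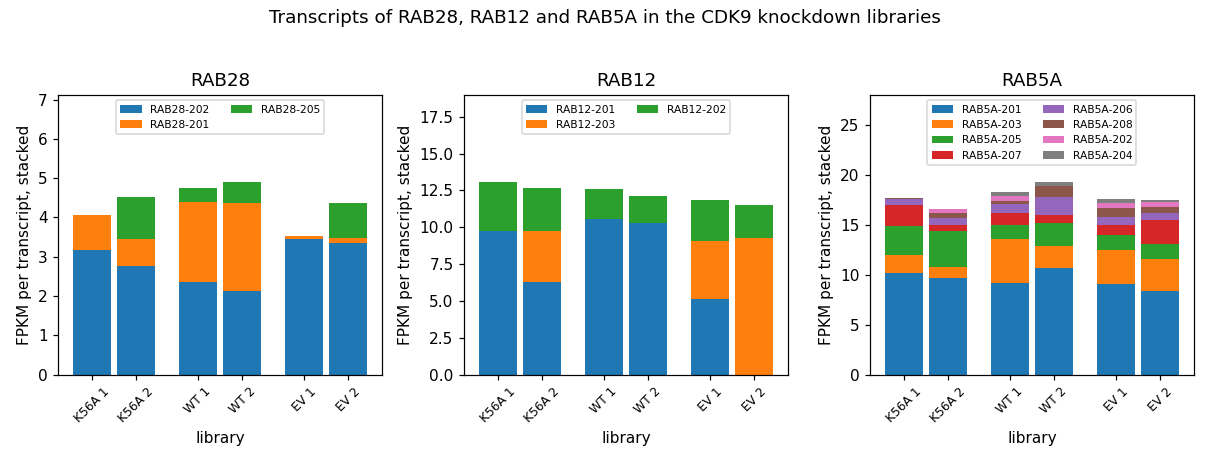
FPKM of each transcript of RAB28, RAB12 and RAB5A, stacked for the K56A, WT and EV libraries, where a transcript that is not listed is drawn as 0. Columns of 1 gene have like heights and unlike divisions, with RAB28-201 at 2.06 and 2.25 FPKM in WT and 0.0667 and 0.135 in EV and RAB12-203 at 0 in both WT libraries.

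The other genes of the RAB cycle were taken from a list of 115 GEFs, GAPs, effectors and membrane-cycling genes. In EPZ versus DMSO, 110 were tested and 0 passed in either direction, where 0.00762% of all genes tested were called. Above 0 lay 55 and below 0 also 55, where 50.5% of all genes lay above 0. Among GEFs, RAB3IL1 had -0.54 ± 0.18 (SE) and RIN1 of RAB5 -0.42 ± 0.15. The effectors SYTL2 of RAB27 and RAB11FIP2 of RAB11 had 0.47 ± 0.14 and 0.49 ± 0.16. Among GAPs, TBC1D30 had -0.29 ± 0.17 and TBC1D8 -0.19 ± 0.13, and of the membrane-cycling genes the prenylated RAB acceptor RABAC1 had -0.29 ± 0.13 and CHM, which presents RABs to the transferase, 0.27 ± 0.21. The limma adjusted p was 0.756 to 0.766 for these.

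In the knockdown fit 85 of the 115 were tested and 0 passed in any of the 3 comparisons. Of all genes tested, 0.787% were called in K56A versus EV, 0.536% in WT versus EV and 0.0605% in K56A versus WT, so few or no calls among 85 genes are near the background. Above 0 lay 62 of 85 in K56A versus EV, where 57.7% of all genes did, 53 of 85 in WT versus EV (52.6%) and 47 of 85 in K56A versus WT (54.5%). The GAP TBC1D22B had 0.39 ± 0.10 (SE) in K56A and 0.36 ± 0.10 in WT, each against EV (limma adjusted p of 0.138 and 0.177). The RAB27 effector SYTL1 had 0.23 ± 0.05 in K56A versus EV (limma adjusted p = 0.0996) and 0.26 ± 0.05 in K56A versus WT (limma adjusted p = 0.132). The RAB11 effector RAB11FIP2 had 0.44 ± 0.10 in WT versus EV (limma adjusted p = 0.0976). RILPL1 (0.40 ± 0.12), the GEFs DENND4B (0.23 ± 0.07) and MADD (0.15 ± 0.06) and the GAP SGSM2 (0.13 ± 0.06) had the next smallest p-values of their lists in K56A versus EV. RABGGTA, a subunit of the RAB prenyl transferase, had 0.21 ± 0.12 there.

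In WT versus EV, RABEP1, which binds both RAB4 and RAB5, had 0.25 ± 0.07 and the GAP SGSM3 -0.19 ± 0.05 (SE, limma adjusted p of 0.179 and 0.143). CCZ1, a subunit of the GEF of RAB7, had 0.25 ± 0.11, DENND5A 0.17 ± 0.08, RABAC1 -0.18 ± 0.06 and GDI2 0.11 ± 0.05. In K56A versus WT, SGSM3 had 0.18 ± 0.05, DENND4B 0.28 ± 0.07, the RAB13 effector MICALL2 0.19 ± 0.05 and the GAP TBC1D9B 0.14 ± 0.05. SBF1 had 0.24 ± 0.09 and RABAC1 0.16 ± 0.06 there. None of these passed, and a gene set against both EV and WT shares libraries between the comparisons.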

How the data were processed

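The authors deposited 3 tables of 4 libraries each with FPKM per transcript, 1 for EPZ and DMSO, 1 for K56A and EV and 1 for WT and EV, each listing transcripts above 0 in at least 2 libraries. The submitters' processing notes name RSEM 1.3.3, STAR 2.7.1a, Trim Galore 0.6.6, the package DESeq2 1.32.0 and the build GRCh38. Neither the strand setting nor the annotation release is given in the sources used here. Per the file headers, the log2 fold changes and p-values deposited by the authors came from edgeR for the inhibitor and DESeq2 for the knockdown. They were quoted as theirs and entered no test here. Another 4 value columns were not used.

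Transcript FPKM were summed per gene. K56A libraries were multiplied by 1.00066, the ratio of the EV values in the 2 knockdown tables, and only the 69086 transcripts listed in both were summed. Genes that reached 1 FPKM in 2 or more libraries were tested with limma 3.58.1 in R 4.3.3 on log2(FPKM + 0.5) with an intensity trend, two-sided, at an adjusted p of 0.05. On simulated data the fit recovered 39% of changes of 0.5 log2 and 93% of changes of 1 log2 in EPZ versus DMSO (13130 genes). In WT versus EV (11566 genes) it recovered 74% and 95%. Among unchanged genes it called 7 in EPZ versus DMSO and 9 in WT versus EV. The simulated spread depended only on the mean level of a gene, and no simulated library stood apart from the others. Whether these rates hold for the measured libraries was not tested. There RAB4B, at -0.58 in WT versus EV, had a limma adjusted p of 0.0477. Replicates share numbers across groups, but the labels give no shared batch. Deviations of equally numbered libraries correlated at -0.033 to 0.033 between the knockdown groups, but at 0.245 for EPZ and DMSO. No pairing entered the fits reported, so any deviation that equally numbered EPZ and DMSO libraries share was left in them. A replicate block was used only as an alternative. Named members are RAB4B, those past the threshold, the 3 smallest p-values in each direction of a comparison, the 3 highest levels per role group and members not tested. RAB18, RAB6B, the transcripts named other than those of RAB4B, and the members named for low levels or for the side-by-side levels of EV and DMSO were picked after their values were seen. The members and lists were chosen with earlier results of these data known. Alternatives changed the pseudocount, filter, scaling, transcripts, spread, samples and block. Figures used matplotlib 3.10.9, and tables used numpy 2.4.6 with pandas 2.3.3 under Python 3.11.15. Sequences came from GENCODE 29 transcripts. RAB4B-201 runs from 40778266 to 40796935 there, but from 40778247 to 40796942 as the authors list it. The other transcripts examined at this locus had the same ends in both. Values of some listed genes are not reported here.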

Additional observations from a re-analysis of the deposited data

How the results depend on the processing

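Of 299 alternative values of the named members other than RAB4B, 293 kept direction and side of the threshold, 4 passed only without DMSO replicate 2 (RAB14, RAB21, RAB30 and RAB40B), and 2 changed sign in WT versus EV with coding transcripts only, RAB4A to -0.039 and RAB37 to 0.0062. RAB4B in EPZ versus DMSO ran from -0.57 to -0.20 without 1 library and passed without DMSO replicate 2 (-0.54, adjusted p = 0.0257). Against EV it passed in 5 of 16 alternatives for K56A and in 5 of 16 for WT. It did not pass, and 0 RAB genes then did, in K56A versus EV (-0.56) and WT versus EV (-0.58) with no filter, with no intensity trend, with only the 2 groups compared or with the replicate block, with coding transcripts only (-0.62 and -0.50), with its table alone (-0.55 and -0.58), and without 1 library (-0.64 to -0.49 and -0.64 to -0.52). With readthrough genes added it was -0.17 and -0.19. In K56A versus WT it turned to -0.12 with coding transcripts only and to -0.016 without mitochondrially encoded genes, and ran from -0.052 to 0.093 without 1 library. RAB genes past the threshold without 1 library ranged from 0 to 10 in EPZ versus DMSO. The cause of these losses was not tested.

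Genes called of all tested in EPZ versus DMSO, 1 in the fit reported, numbered 0 with FPKM of at least 1 in every library, no filter, no trend or a pseudocount of 0.1, 3 with coding transcripts only, 2 with the replicate block and 34 to 1560 without 1 library. In K56A versus EV, 91 became 55 with no filter, 4 with no trend, 25 with only the 2 groups, 41 with coding transcripts, 53 with the block, 22 with its table alone, 170 without mitochondrially encoded genes and 6 to 38 without 1 library. In WT versus EV, 62 became 40, 1, 11, 37 and, with its table alone, 10, in the same order without the block, and 2 to 7 without 1 library. In K56A versus WT, 7 became 18 with FPKM of at least 1 in every library, 1 with no filter, 0 with no trend, 21 with only the 2 groups, 1 with coding transcripts, 3 with the block, 4 without mitochondrially encoded genes and 1 to 2 without 1 library. Equal replicate numbers were not shown to pair samples. Where a group kept 1 library, it was assumed to vary like the other groups. Depth is unknown, so differences of low members below about 1 FPKM cannot be judged.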
